A study of Homo sapiens with 6 samples.

Results

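The genes described here are 10 genes of the tight junction, the claudins CLDN1, CLDN3, CLDN4, CLDN7, CLDN11 and CLDN12, the other membrane proteins OCLN and F11R, and the junction-plaque proteins TJP1 and CGN. They were picked by gene symbol from the 17631 genes listed, and all 10 had a row and a value of at least 1 TPM, a measure of transcript abundance scaled to gene length and library total, in each of the 6 libraries. The choice was made with the difference between the treatments in these libraries known, so the differences of the 10 genes are given as a description, with intervals and a count past the threshold used for all genes but no p values. The samples were cultures of MDA-MB-231, a human cell line of the triple-negative class of breast cancer, kept for 24 h with vehicle (3 libraries) or with 30 µM PDBAG1 (3 libraries), a synthetic peptide made of a cell-penetrating sequence joined to a fragment of the enzyme GPD1. The labels name no genetic change in either group, and both grew in the same serum-supplemented medium. One label gives breast cancer tissue as the source, whereas the cell line field and the extraction protocol name MDA-MB-231.

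Tight junctions seal the space between neighbouring epithelial cells near their apical surface. Claudins form the paired strands that close this space or leave it open to particular ions, and occludin and the junctional adhesion molecules sit in or beside the strands. Inside the cell, ZO-1 and cingulin tie the strands to actin. In breast cancer, loss of CLDN3, CLDN4, CLDN7 and E-cadherin transcripts defines the claudin-low class, to which MDA-MB-231 is commonly assigned, and junction genes are repressed by transcription factors such as ZEB1 and SNAI2 in cells that have lost the epithelial state.

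In each library between 12392 and 12611 genes reached 1 TPM. TPM holds no record of read depth, so the counting error behind a value is unknown and precision rests on 3 libraries per group. Pairs of libraries with the same treatment differed by 0.142 to 0.175 (SD over genes of the log2 difference), and pairs with unlike treatment by 0.278 to 0.296. The labels do not say whether the libraries of a group came from separate cultures, so the spread may be technical. Markers fixed for the line were mixed. The mesenchymal marker VIM lay between 4174 and 4346 TPM with vehicle and between 5758 and 5942 TPM with PDBAG1 (log2 difference 0.46, adjusted p = 1.02e-07 in limma). CD44 lay between 313 and 331 TPM with vehicle and between 463 and 499 TPM with PDBAG1 (log2 difference 0.59, adjusted p = 1.15e-07 in limma). Both moved with the treatment, as several claudins did, and their part in those differences was not tested. ZEB1 lay between 41.1 and 50.4 TPM, CDH1 was at most 0.84 TPM and PGR at most 0.06 TPM, whereas ESR1 (1.96 to 3.38 TPM), EPCAM (3.92 to 5.78 TPM), ERBB2 (23.6 to 25.4 TPM) and CD24 (59.7 to 73.2 TPM) were detected. Of 6 markers of other cells of breast tissue, 5 had a row, and their summed level was 5.56 to 5.91 TPM with vehicle and 9.65 to 11.4 TPM with PDBAG1. The increase lay mostly in PECAM1, an adhesion molecule of endothelium and blood cells, which went from 3.94 ± 0.152 to 8.64 ± 0.680 TPM (SD, n = 3 each), while the endothelial gene CDH5 was at 0.39, 0.25 and 0.28 TPM with vehicle and 0.46, 0.45 and 0.41 TPM with PDBAG1, without overlap. CLDN5, also endothelial, did not exceed 0.14 TPM, PTPRC did not exceed 1.41 TPM, ADIPOQ 0.69 TPM and LUM, at 0 in 4 libraries, 0.04 TPM. The part of such cells in the differences given here was not tested.

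In vehicle-treated cells the claudins that define the claudin-low class were not uniformly low. CLDN4, whose protein tightens the junction to sodium, stood at 89.66, 85.49 and 85.59 TPM, above 88.6% of the listed genes. CLDN7, which also lies along the lateral membrane, stood at 58.24, 55.64 and 58.21 TPM, above 83.2% of the listed genes. CLDN3, a sealing claudin, was far lower, at 5.63, 6.39 and 5.68 TPM, above 43.7% of the listed genes. CLDN3 thus lay below the middle of the listed genes and CLDN4 and CLDN7 in the upper part, and no other breast line was measured here with which the CLDN4 and CLDN7 levels could be compared. CLDN12, an atypical claudin linked to calcium passage, followed CLDN7 with 50.69, 48.32 and 47.09 TPM.

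Below these 3 claudins lay 4 genes of which each overlapped its neighbour in the order, namely CLDN1 at 21.4 ± 1.60, OCLN at 21.4 ± 2.25, TJP1 at 20.4 ± 1.41 and CLDN11 at 17.6 ± 1.75 TPM (SD, n = 3 each). Neighbours among them could not be ordered beyond the spread between libraries, although all CLDN1 values were above all CLDN11 values. F11R, which encodes the junctional adhesion molecule JAM-A, followed at 13.7 ± 0.923 TPM, then CLDN3 at 5.90 ± 0.425 TPM, and CGN was lowest at 2.64 ± 0.556 TPM (SD, n = 3 each). All other neighbouring pairs in the vehicle order had library ranges that did not overlap. The coefficient of variation between vehicle libraries ran from 2.60% for CLDN7 to 21.1% for CGN, the gene with the lowest level.

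**Figure D1:**
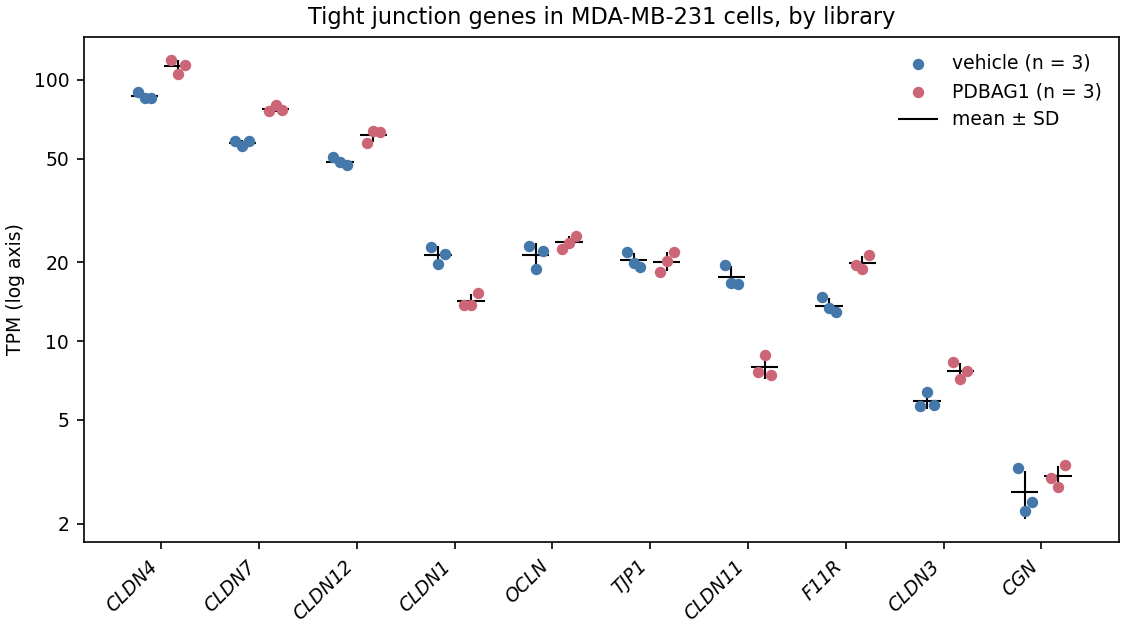
TPM (log axis) of the 10 genes in each library, ordered by the vehicle mean; points are single libraries (blue vehicle, red PDBAG1, 3 each), horizontal bars means and vertical bars SD. CLDN4, CLDN7 and CLDN12 lie above 45 TPM in every library, CLDN11 and CLDN1 move down with PDBAG1, and F11R lies below both with vehicle and above both with PDBAG1.

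With PDBAG1, CLDN11 and CLDN1 were lower, F11R, CLDN7, CLDN4, CLDN3 and CLDN12 were higher, and OCLN, CGN and TJP1 had overlapping groups. In the model fitted across all 12582 genes with at least 1 TPM in 3 or more libraries (limma on log2(TPM + 1), Benjamini-Hochberg adjusted p under 0.05), 7 of the 10 genes passed the threshold, 5 of them higher and 2 lower. The same threshold was passed by 37.6% of all genes tested, 21.7% higher and 15.9% lower. The split over all genes was 2736 higher and 2000 lower and turned to 2455 higher and 2741 lower under median-of-ratios scaling, which left the counts of the 10 genes at 5 higher and 2 lower. Vehicle and PDBAG1 values did not overlap in 7 of the 10 genes, against 47.4% of all genes tested. The median log2 difference of the 10 genes was 0.24, and that of all genes tested was 0.03. In bulk RNA, a lower level per cell and fewer cells that express the gene cannot be told apart.

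CLDN11 had the largest difference of the 10. This claudin forms the strands between the wraps of myelin and between Sertoli cells. Its TPM was 19.62, 16.72 and 16.48 with vehicle and 7.59, 8.87 and 7.44 with PDBAG1. The PDBAG1 libraries were all at about the same level, and the highest lay well under the lowest vehicle library. The ratio of the means was 0.452, and the log2 difference was -1.05 (standard error 0.09, 95% interval -1.24 to -0.86), larger in size than that of 99.4% of all genes tested. CLDN11 (chromosome 3, 170418868 to 170454733, plus strand, GRCh38, GENCODE v44) was the only one of the 10 past the threshold with a difference of at least 1.5-fold on the log2(TPM + 1) scale, a limit that 3.34% of all genes tested passed, and 0.477% passed it with lower values. CLDN1, at -0.56, fell just short of this limit on the log2(TPM + 1) scale. It was past the limit under median-of-ratios scaling (-0.60) and quantile normalization (-0.61).

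CLDN1, the claudin of the skin barrier and of many epithelia, stood at 22.97, 19.78 and 21.59 TPM with vehicle and at 13.7, 13.75 and 15.34 TPM with PDBAG1. The groups were apart, with the ratio of means at 0.665 and a log2 difference of -0.56 (standard error 0.07, 95% interval -0.72 to -0.40). CLDN1 (chromosome 3, 190305707 to 190322446, minus strand) and CLDN11 lie on the same chromosome, in separate loci. The CLDN11 locus overlaps SLC7A14-AS1 and MIR6828 on the same strand, so shared reads could enter the CLDN11 value. With vehicle all CLDN1 values were above those of F11R, and with PDBAG1 all were below. In the PDBAG1 libraries the values of CLDN11 overlapped those of CLDN3.

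F11R had the largest increase of the 10. Its protein, JAM-A, binds across the cell border to itself and recruits polarity proteins. The TPM was 14.71, 13.37 and 12.94 with vehicle and 19.51, 18.81 and 21.35 with PDBAG1, a ratio of means of 1.45 and a log2 difference of 0.51 (standard error 0.07, 95% interval 0.35 to 0.67). All PDBAG1 libraries were above all vehicle libraries. F11R lies on chromosome 1, 160995211 to 161021343, minus strand, where an annotated gene without a symbol overlaps it on the same strand.

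The 3 claudins of the claudin-low definition were all higher with PDBAG1. CLDN7 was at 76.33, 80.34 and 76.47 TPM with PDBAG1, a ratio of means to vehicle of 1.35 and a log2 difference of 0.43 (standard error 0.05, 95% interval 0.33 to 0.53). CLDN4 was at 119.03, 105.67 and 113.73 TPM, a ratio of 1.30 and a log2 difference of 0.37 (standard error 0.05, 95% interval 0.26 to 0.48). CLDN3 was at 8.29, 7.18 and 7.65 TPM, a ratio of 1.31 and a log2 difference of 0.34 (standard error 0.09, 95% interval 0.15 to 0.52). The groups did not overlap in any of these genes, although CLDN3 did not pass the threshold under quantile normalization, where its log2 difference was 0.24. CLDN3 (chromosome 7, 73768997 to 73770270, minus strand) and CLDN4 (chromosome 7, 73799542 to 73832690, plus strand) are neighbours, 29272 bases apart. CLDN7 (chromosome 17, 7259903 to 7263983, minus strand) overlaps ELP5 on the opposite strand and has a processed copy, CLDN7P1, on the X chromosome. An annotated gene without a symbol also overlaps CLDN7 on the same strand. Whether the counting used strand is not given in the sources used here, so reads of CLDN7 and ELP5 may have been mixed.

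CLDN12 was at 57.6, 63.64 and 63.15 TPM with PDBAG1, all above the vehicle libraries, with a ratio of 1.26 and a log2 difference of 0.33 (standard error 0.05, 95% interval 0.21 to 0.45). Its annotated locus on chromosome 7 (90383721 to 90513402, plus strand) overlaps GTPBP10 and CDK14 on the same strand, so shared reads could enter its value.

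The remaining 3 genes had groups that overlapped. For OCLN, which encodes occludin, the TPM was 23.21, 18.9 and 22.19 with vehicle and 22.56, 23.79 and 25.24 with PDBAG1. The log2 difference of 0.15 had a 95% interval of -0.02 to 0.32. OCLN (chromosome 5, 69492292 to 69558104, plus strand) has an unprocessed pseudogene, OCLNP1, on the same chromosome, between which and OCLN reads may be split. TJP1, which encodes the scaffold ZO-1, was at 21.97, 19.96 and 19.24 TPM with vehicle and 18.45, 20.21 and 21.84 TPM with PDBAG1. Its log2 difference was -0.02 (95% interval -0.18 to 0.15), and this interval leaves out a difference as large as that of CLDN1 or F11R. For CGN, which encodes cingulin, the TPM was 3.27, 2.23 and 2.41 with vehicle and 3, 2.77 and 3.35 with PDBAG1. The interval of its log2 difference of 0.16 was wide, from -0.10 to 0.42, and would hold changes of the size seen in CLDN4. TJP1 lies on chromosome 15 (29699367 to 29968915, minus strand) and CGN on chromosome 1 (151510510 to 151538692, plus strand). An annotated gene without a symbol overlaps TJP1 on the same strand.

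**Figure D2:**
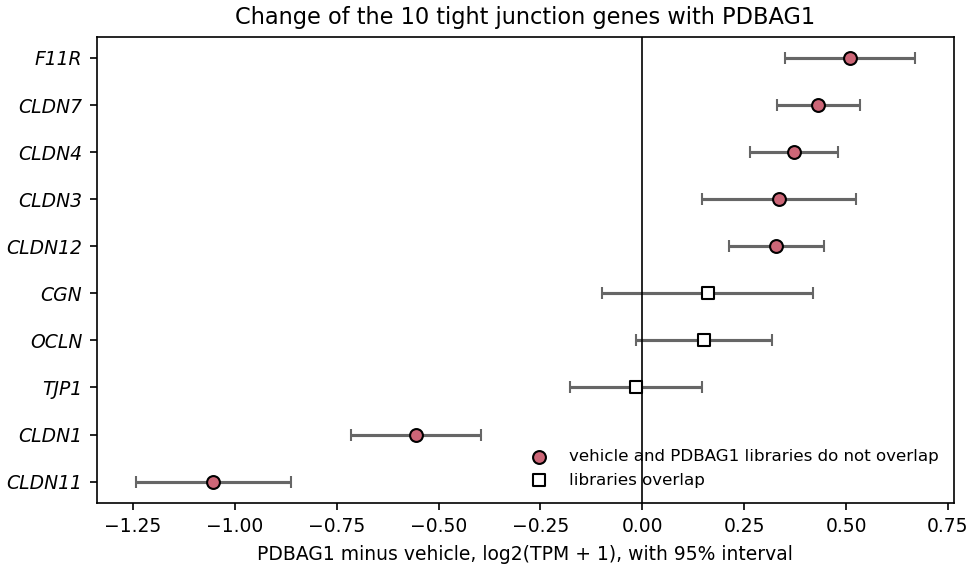
Difference between PDBAG1 and vehicle on the log2(TPM + 1) scale for the 10 genes, with the 95% interval of the limma fit; red circles mark genes whose library values do not overlap between treatments, open squares those that overlap. CLDN11 at -1.05 and CLDN1 at -0.56 stand on the left, and 5 genes between 0.33 and 0.51 on the right.

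The mixture of claudin transcripts shifted with these differences. Rows for 18 claudin genes were present, and their summed TPM was 258, 242 and 245 with vehicle and 296, 291 and 295 with PDBAG1. CLDN4, CLDN7 and CLDN3 together made up 60.5% ± 0.913 of the sum in vehicle libraries and 67.4% ± 1.27 in PDBAG1 libraries (SD, n = 3 each). The joint share of CLDN1 and CLDN11 went from 15.7% ± 0.723 to 7.57% ± 0.318 (SD, n = 3 each). CLDN12 kept close to a constant part, 19.6% ± 0.339 and 20.9% ± 1.27 (SD, n = 3 each), and its library values overlapped between the groups. The summed level and the share of CLDN1 and CLDN11 did not overlap between the treatments. These shares rest on the values of the chosen genes and carry no test. An exact permutation test of 3 libraries against 3 cannot give a two-sided p under 0.1.

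**Figure D3:**
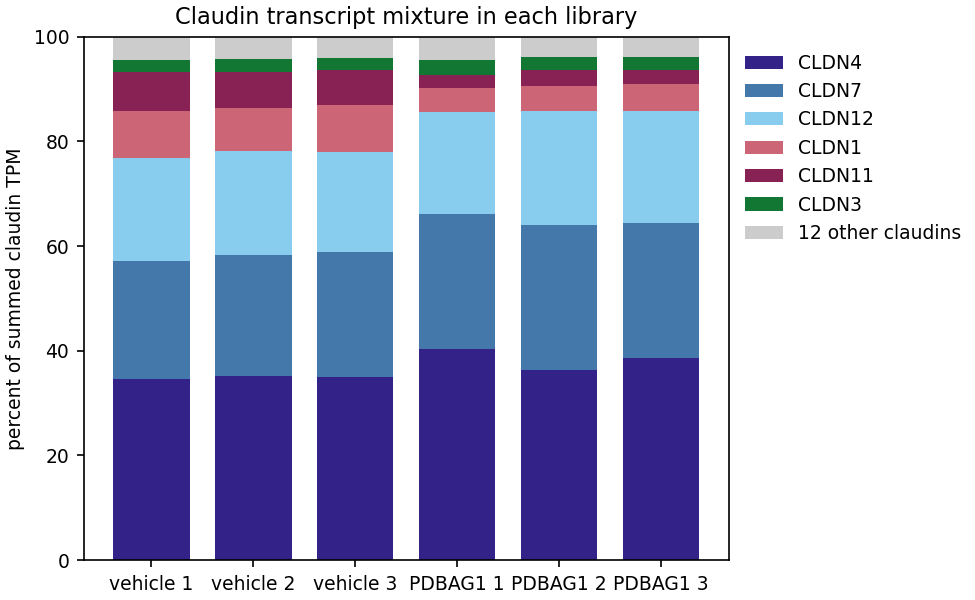
Share of 6 claudin genes, and of the 12 others together, in the summed claudin TPM (percent) of each library, as stacked bars. The joint band of CLDN1 and CLDN11 is narrower in the 3 PDBAG1 libraries (7.20% to 7.78%) than in the 3 vehicle libraries (15.1% to 16.5%).

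Since CLDN1 and CLDN11 were lower while CLDN4 and CLDN7 were higher, the sequences before the start of these 4 genes are shown side by side. Each is the stretch of 250 bases before the start of the annotation's canonical transcript, 5′ to 3′ on the strand of the gene, from RefSeq on GRCh38.p14. The windows are chr3:190322447-190322696 (minus strand) for CLDN1, chr3:170418618-170418867 (plus) for CLDN11, chr7:73830746-73830995 (plus) for CLDN4 and chr17:7262479-7262728 (minus) for CLDN7. Capitals mark CAGGTG or its reverse complement CACCTG, the E-box that ZEB and SNAI factors can bind.
CLDN1: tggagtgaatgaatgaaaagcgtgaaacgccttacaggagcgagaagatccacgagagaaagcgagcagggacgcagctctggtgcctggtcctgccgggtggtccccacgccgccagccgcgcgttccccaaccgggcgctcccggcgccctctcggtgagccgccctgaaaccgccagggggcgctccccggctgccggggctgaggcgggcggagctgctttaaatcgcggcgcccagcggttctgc
CLDN11: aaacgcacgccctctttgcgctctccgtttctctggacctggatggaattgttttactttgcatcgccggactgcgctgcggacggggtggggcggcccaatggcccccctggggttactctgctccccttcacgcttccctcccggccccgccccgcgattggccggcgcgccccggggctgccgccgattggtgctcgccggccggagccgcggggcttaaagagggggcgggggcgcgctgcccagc
CLDN4: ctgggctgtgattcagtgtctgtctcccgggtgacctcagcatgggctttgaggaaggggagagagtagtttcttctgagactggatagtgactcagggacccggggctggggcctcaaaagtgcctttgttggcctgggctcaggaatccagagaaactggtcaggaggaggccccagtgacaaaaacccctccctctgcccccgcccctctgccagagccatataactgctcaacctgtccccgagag
CLDN7: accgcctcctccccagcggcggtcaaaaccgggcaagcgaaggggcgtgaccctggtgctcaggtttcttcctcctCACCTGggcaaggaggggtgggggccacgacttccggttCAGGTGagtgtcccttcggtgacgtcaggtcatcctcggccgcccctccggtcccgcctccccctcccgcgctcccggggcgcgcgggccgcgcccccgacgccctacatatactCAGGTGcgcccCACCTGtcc
The CLDN7 window held 4 matches, and the other 3 windows held none. Over all 35116 promoter windows of this length, 17.5% held at least 1 match. Of the 10 genes, 9 were in the promoter table, with 15 windows, and OCLN and TJP1 also had a window with the E-box. The TJP1 match was not in the window at the canonical start. The windows of CLDN3 and CLDN12, which were higher with PDBAG1, held no E-box, and OCLN and TJP1 had overlapping groups. A gene counts here with a match in any of its windows, whereas the shares are per window, so the units are unlike. The letters ACGTG (reverse complement CACGT), 1 form of the core of the hypoxia response element, were in a window of CLDN3, OCLN and CGN. They were in 18.5% of all windows, and both strands of 1 palindrome were counted in CGN. The other form, GCGTG (reverse complement CACGC), was not searched for, but it stands in the printed CLDN1, CLDN7 and CLDN11 windows. GGAATG (reverse complement CATTCC), the core read by TEAD factors, was in no window of the 9 genes and in 11.9% of all windows. No ACGTG match overlapped an E-box match in the windows of the 9 genes, and a match describes letters only.

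Factors that act on such E-boxes and on the epithelial state were read by level. ZEB1 was at 44.5 ± 3.40 and 47.5 ± 4.38 TPM and SNAI2 at 15.6 ± 1.87 and 17.1 ± 0.514 TPM (vehicle, then PDBAG1; SD, n = 3 each). ZEB2 (4.09 to 5.10 TPM), KLF5 (18.7 to 23.7 TPM), ESRP2 (2.88 to 3.79 TPM), ELF3 (2.90 to 5.46 TPM), SNAI1 (1.31 to 2.30 TPM) and GRHL1 (0.84 to 1.35 TPM) completed the 8 factors expressed well enough to be tested. Library values did not overlap between treatments for ELF3, which was higher with PDBAG1, and ESRP2, which was lower. Over all genes tested, 47.4% had no overlap. GRHL2, a known activator of claudin and CDH1 genes, did not exceed 0.15 TPM in any library, GRHL3 0.09, OVOL1 0.23, OVOL2 0.10, TWIST1 0.13, TWIST2 0.09 and ESRP1 0.55 TPM. In limma, 0 of the 8 passed the adjusted threshold, against 37.6% of all genes tested. An unadjusted p under 0.05 was held by 1 of the 8, against 5814 of the 12582 genes tested.

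A further list of 75 genes of the tight junction, written by role, had 69 genes with a row, and 50 were tested. In limma 10 of the 50 were higher and 5 lower at an adjusted p under 0.05, which is 30% against 37.6% of all genes tested, and their median log2 difference was 0.11. Without vehicle replicate 3 the number past the threshold was 9, or 18%, against 28% of all genes tested in the same fit. A gene could enter the test through 1 treatment alone, so the counts describe the tested genes and not the list. The list was written with earlier results known, and the genes named from it below were picked by size of change or by level. Their adjusted p values are therefore a description of the fit and no separate support. Among the other claudins, CLDN15 (5.34 ± 0.858 and 6.30 ± 0.462 TPM), CLDN23 (2.67 ± 0.251 and 2.34 ± 0.476 TPM) and CLDN20 (0.850 ± 0.433 and 1.47 ± 0.335 TPM, SD, n = 3 each, vehicle and PDBAG1) were tested, with 0 past the adjusted threshold in limma and 1 with an unadjusted p under 0.05. CLDN15 passed without vehicle replicate 1, and CLDN20 without vehicle replicate 1 or PDBAG1 replicate 3. CLDN14 was listed at 0 in the 3 vehicle libraries and at 0.19 to 0.30 TPM with PDBAG1.

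Of the other membrane proteins, 2 of 8 tested rose and 1 fell past the adjusted threshold, 37.5% against 37.6% of all genes tested. ESAM, an adhesion molecule related to F11R and known from endothelium, was the most abundant, and went from 213 ± 4.07 to 268 ± 14.5 TPM (SD, n = 3 in each group), a log2 difference of 0.33 with an adjusted p of 5.87e-05 in limma. LSR, the angulin of contacts between 3 cells, rose by a log2 difference of 0.18 (adjusted p = 0.0376 in limma), a call that was lost under median-of-ratios scaling and quantile normalization (0.14 in both) and without any 1 library other than PDBAG1 replicate 3. ILDR2, a relative of LSR, fell by 0.35 on the log2 scale (adjusted p = 0.0353 in limma), a call lost without vehicle replicate 1, vehicle replicate 3, PDBAG1 replicate 1 or PDBAG1 replicate 2.

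Among scaffolds and adaptors, 3 of 10 rose and 1 fell, 40% against 37.6% of all genes tested. AMOTL2, an angiomotin that links junctions to actin, fell from 67.6 ± 2.60 to 44.7 ± 1.87 TPM (SD, n = 3 in each group), a log2 difference of -0.58 with an adjusted p of 1.62e-06 in limma. AFDN, which encodes afadin, and MAGI1, a PDZ scaffold, rose by log2 fold changes of 0.43 and 0.34 (adjusted p = 0.000622 and 0.00354 in limma).

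The polarity proteins had 1 gene of 11 that rose and 1 that fell, 18.2% against 37.6% of all genes tested. LLGL2, a basolateral polarity protein of the Lgl family, rose from 9.20 ± 0.459 to 15.7 ± 1.25 TPM (SD, n = 3 in each group), a log2 difference of 0.71 with an adjusted p of 1.18e-05 in limma, the largest change of the 50 on the log2(TPM + 1) scale and the only one called there with at least 1.5-fold. In TPM, the ratio of the means was 1.71 for LLGL2, 1.59 for WNK4, 1.73 for CLDN20, which was not called, and 0.662 for AMOTL2. MPP5, now named PALS1, the scaffold of the apical Crumbs complex, was the most abundant of the role and fell from 59.9 ± 2.81 to 44.9 ± 4.30 TPM (SD, n = 3 in each group), a log2 difference of -0.41 with an adjusted p of 0.000282 in limma. In the signalling and trafficking role, 4 of 18 rose and 2 fell, 33.3% against 37.6% of all genes tested. ARHGEF2, an activator of RhoA that can bind at junctions, rose by a log2 difference of 0.36 (adjusted p = 3.17e-05 in limma). CDK4, a cell cycle kinase bound by the ZO-1 partner YBX3, fell by 0.28 on the log2 scale (adjusted p = 0.000119 in limma). WNK4, a kinase that acts on claudins in the kidney, rose by a log2 difference of 0.39 from 1.12 ± 0.105 TPM (SD, n = 3) with an adjusted p of 0.0183 in limma, and lost the call without vehicle replicate 3 or PDBAG1 replicate 2. YBX3, the most abundant of this role at 224 ± 3.29 TPM with vehicle (SD, n = 3), rose by a log2 difference of 0.11 (adjusted p = 0.0291 in limma), and lost the call without vehicle replicate 1, 2 or 3, without PDBAG1 replicate 1, and, at 0.07, under median-of-ratios scaling.

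**Figure D4:**
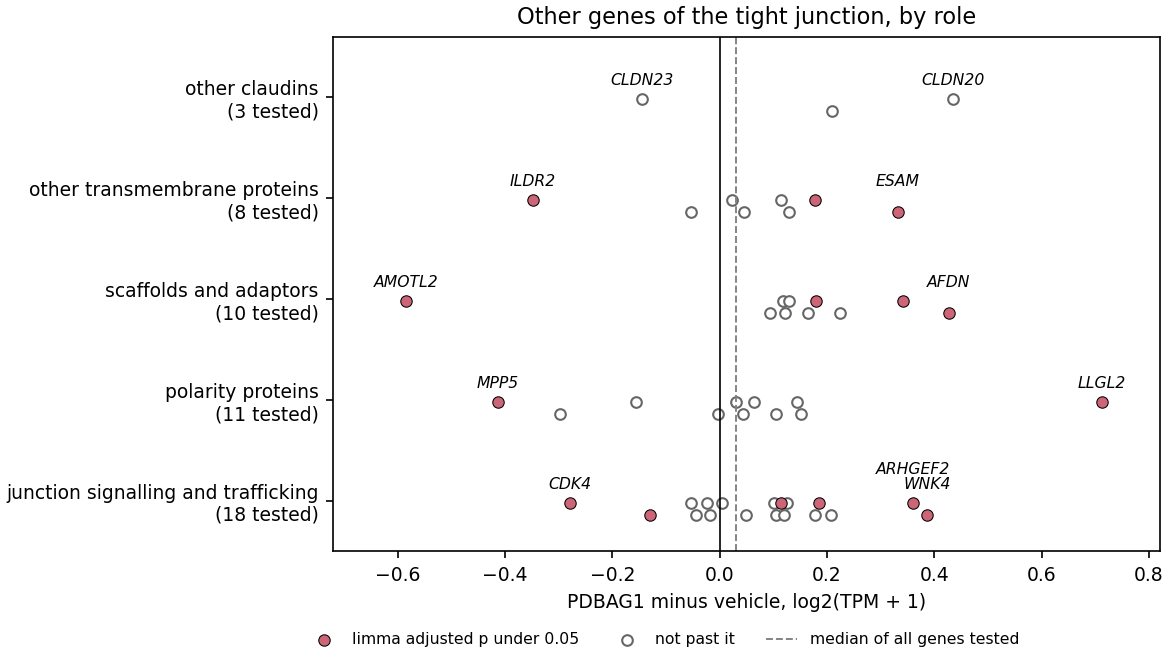
Difference between PDBAG1 and vehicle on the log2(TPM + 1) scale for the 50 tested genes of the further tight junction list, 1 row per role; filled points passed a limma adjusted p of 0.05, and the dashed line is the median of all genes tested (0.03). LLGL2 at 0.71 and AMOTL2 at -0.58 lie farthest out.

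Over the 6 libraries, the genes whose pattern was most like that of CLDN11 were DKK1, CCN2 and ANKRD1, at Euclidean distances of 0.23, 0.28 and 0.28 between log2(TPM + 1) values centred on each gene's mean. Their mean TPM with vehicle and PDBAG1 were 215 and 107 for DKK1, 133 and 66.7 for CCN2, and 882 and 420 for ANKRD1, all more abundant than CLDN11. The genes nearest to F11R were RRBP1, MXRA8 and ADRA1B, at distances of 0.05, 0.07 and 0.07.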

How the data were processed

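The authors extracted total RNA with TRIzol from MDA-MB-231 cells and had mRNA libraries sequenced on the BGISEQ-500 platform, whereas the labels name Illumina library protocols. According to the methods, reads were mapped with HISAT2 to GRCh38.p13 and normalised to FPKM, and the submitters' processing notes list HISAT2 2.0.4, Bowtie2 2.2.5, RSEM 1.2.12 and GRCh38.p12 without roles. The values the authors deposited are TPM per gene, rounded to 2 decimals, and TPM compares genes per length but keeps no depth.

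The members and gene lists were chosen with earlier results of these data known. Groups and replicate numbers came from the sample titles. The 12582 genes that reached 1 TPM in at least 3 libraries entered the test, as log2(TPM + 1) with limma 3.58.1 in R 4.3.3 (lmFit, eBayes with trend), at a Benjamini-Hochberg adjusted p under 0.05; differences on this scale are understated for genes with low TPM. The fit was tested on simulated data. Named beyond the 10 members were tested claudins with a mean of at least 1 TPM, the 3 largest changes past the threshold and the most abundant gene of each role, and the 3 genes nearest to CLDN11 and to the member with the largest rise. One gene that this rule names is not reported here. CLDN14 and the genes of the other junction list were named after their values were seen. Positions are from GENCODE v44 on GRCh38, matched through Ensembl identifiers (17192 shared). Deviations from the group means correlated at -0.21, 0.01 and -0.08 between libraries of equal number, so the numbers were not taken as pairs. Alternatives were other filters, scalings and pseudocounts, a fold limit, a replicate block and leaving out each library.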

Additional observations from a re-analysis of the deposited data

How the results depend on the processing

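The number of members past the threshold was 7 in every fit that left out 1 library, with no expression filter, with at least 1 TPM in every library, with a pseudocount of 0.1 and under median-of-ratios scaling, and it was 6 under quantile normalization, where CLDN3 did not pass (log2 difference 0.24). With a fold limit of 1.5 the counts were 1 for the members, 1 for the other tight junction genes and 420 for all genes, because the limit removes smaller differences. Over the fits that left out 1 library the counts ranged from 9 to 17 for the other tight junction genes (9 without vehicle replicate 3 and 10 without PDBAG1 replicate 2) and from 3520 to 4682 for all genes. Without vehicle replicate 3, 18% of the other tight junction genes and 28% of all genes passed. Without PDBAG1 replicate 2 the shares were 20% and 29%. The log2 difference of TJP1 changed sign, to 0.036 without vehicle replicate 1 and 0.043 without PDBAG1 replicate 1, and ranged from -0.073 to 0.043. Under a replicate block built from the numbers in the titles, 7 members, 13 other tight junction genes and 3951 of all genes passed; CLDN20 passed there at 0.43, and LSR and YBX3 did not. The titles give no shared origin for equal numbers. ILDR2 and LSR did not pass without the expression filter. The cause of these losses was not tested. TPM keeps no depth, so the limit that counting sets on CLDN3, CGN and the other genes of low level is unknown.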

Other observations

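Other cell junctions were described by a list of 20 genes of adherens junctions and desmosomes, all with a row and 16 of them tested. With limma 7 were higher and 2 lower at an adjusted p under 0.05, or 56.2% against 37.6% of all genes tested, with a median log2 difference of 0.14. DSP, the desmosomal plaque protein desmoplakin, had the largest rise, from 19.9 ± 1.31 to 29.0 ± 2.34 TPM (SD, n = 3 in each group), a log2 difference of 0.52 with an adjusted p of 8.28e-05 in limma, and JUP, plakoglobin, rose from 32.1 ± 2.31 to 44.8 ± 2.37 TPM (SD, n = 3 each). The plakophilin genes PKP2 and PKP4 fell by 0.48 and 0.40 on the log2 scale, while PKP3 was at 15.0 ± 0.501 and 15.5 ± 0.708 TPM (SD, n = 3 each). CDH1 and CDH2 stayed under 0.85 TPM in all libraries, whereas the catenin genes CTNNA1 and CTNNB1 were at 367 and 234 TPM with vehicle. These genes were named after their values were seen, so the adjusted p value of DSP is a description and no separate support.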
